A study of Mus musculus with 2 samples.

Results

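Cytochrome c oxidase, complex IV of the mitochondrial respiratory chain, takes electrons from cytochrome c to oxygen. Several of its nuclear-encoded subunits exist as paired genes, a form found in most tissues and a form restricted to certain tissues. The 9 genes described here are those of the COX4, COX6A, COX7A and COX8 families named Cox4i1, Cox4i2, Cox6a1, Cox6a2, Cox7a1, Cox7a2, Cox7a2l, Cox8a and Cox8b. They were chosen by symbol, a rule that uses no measured value, though with earlier results of these data known, and all 9 were found among 55348 gene entries. They form 4 pairs, with Cox7a2l as a further relative in the COX7A family.

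The series compared 2 RNA-seq libraries of embryonic mouse hearts at stage E13.5, both of strain 129sv and both described as total RNA. The first came from wild-type hearts and the second from hearts homozygous for a missense allele of the lamin A/C gene, Lmna H222P/H222P, called H222P below, used in mice as a model of heart disease caused by lamin mutations. The labels do not say how many hearts went into a library, nor their sex. With 1 library per genotype there is no replicate check: every difference lies between these 2 libraries, carries no p-value, and has a 95% interval for counting error only.

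As background, mammalian heart and skeletal muscle make muscle forms of subunits 6A, 7A and 8 (Cox6a2, Cox7a1 and Cox8b) that largely join or replace the ubiquitous forms (Cox6a1, Cox7a2 and Cox8a) as striated muscle matures around and after birth. Cox4i2 is not a muscle form. It is best known from adult lung and from its response to low oxygen, and its partner Cox4i1 serves most tissues. Cox7a2l, also called SCAF1, resembles the COX7A subunits but joins complexes III and IV into supercomplexes.

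In the H222P library the 3 muscle forms were all lower, each by more than its ubiquitous partner. Cox8b was 4.30-fold lower (95% interval 3.42 to 5.53), Cox7a1 2.40-fold (2.07 to 2.80) and Cox6a2 2.23-fold (2.07 to 2.40). The ubiquitous forms were lower by 1.30-fold (Cox6a1), 1.46-fold (Cox8a) and 1.86-fold (Cox7a2). Cox4i2, the tissue form outside muscle, had a log2 ratio of 0.08 (−0.39 to 0.55), against −0.46 (−0.50 to −0.42) for Cox4i1.

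The upstream sequences of the COX8 and COX7A pairs are shown because these pairs had the largest and the smallest shift among the muscle pairs. They are the 250 bases before the start annotated in RefSeq, 5′ to 3′ (GRCm38.p6), in lower case with every CG dinucleotide in capitals. This start matches the gene coordinates given below for Cox8b and Cox8a. For Cox7a1, Cox7a2 and Cox6a1 the window lies partly inside those coordinates, and for Cox7a2l wholly inside.
Cox8b, chr7:140900447-140900696, minus strand: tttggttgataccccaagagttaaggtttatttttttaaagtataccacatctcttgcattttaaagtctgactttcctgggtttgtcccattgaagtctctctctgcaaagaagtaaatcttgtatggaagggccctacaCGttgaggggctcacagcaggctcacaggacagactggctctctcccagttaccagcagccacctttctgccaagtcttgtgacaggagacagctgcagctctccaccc
Cox8a, chr19:7217617-7217866, minus strand: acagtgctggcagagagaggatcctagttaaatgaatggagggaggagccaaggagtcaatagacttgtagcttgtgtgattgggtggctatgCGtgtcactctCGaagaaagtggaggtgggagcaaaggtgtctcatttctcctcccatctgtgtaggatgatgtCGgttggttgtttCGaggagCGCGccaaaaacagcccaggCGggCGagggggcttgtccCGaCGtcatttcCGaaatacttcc
Cox7a1, chr7:30183921-30184170, plus strand: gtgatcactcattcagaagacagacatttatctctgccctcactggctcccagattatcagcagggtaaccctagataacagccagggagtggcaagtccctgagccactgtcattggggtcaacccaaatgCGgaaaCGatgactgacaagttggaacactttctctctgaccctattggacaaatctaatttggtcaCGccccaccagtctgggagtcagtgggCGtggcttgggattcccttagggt
Cox7a2, chr9:79759854-79760103, minus strand: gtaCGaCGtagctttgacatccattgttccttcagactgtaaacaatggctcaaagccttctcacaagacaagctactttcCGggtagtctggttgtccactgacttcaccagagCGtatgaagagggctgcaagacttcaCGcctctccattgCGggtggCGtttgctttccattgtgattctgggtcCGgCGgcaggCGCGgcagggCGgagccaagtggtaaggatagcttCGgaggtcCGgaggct
Over this window the muscle forms held fewer CG dinucleotides than their partners: Cox8b had 1 and Cox8a 11, and Cox7a1 had 4 and Cox7a2 14. The median over 32851 promoters of the table was 6. Such dinucleotides are usually dense at promoters of genes used by all tissues. The letters CANNTG, the E-box read by muscle and other basic helix-loop-helix factors (a motif that reads alike on both strands), matched at 1 place in each of these 4 windows, and in 66.2% of all promoters. The Cox6a1 window had 26 CG dinucleotides and 1 match to CCGGAAG, letters read by ETS factors such as the respiratory gene factor GABP, searched on both strands and found in 6.91% of promoters. The other 5 windows had 0 matches to it. The Cox7a2l window had 13 CG dinucleotides. Sequences were found for 6 of the 9 genes, and Cox4i1, Cox4i2 and Cox6a2 had no entry. A match is a description of letters, not of binding.

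Reads on genes numbered 32669225 in the wild-type and 25120790 in the H222P library. Libraries were scaled by TMM factors, which assume that most genes do not differ, and CPM is the read count relative to the scaled library. A gene counts as measured when the mean over both libraries reached 1 CPM, which was true of 14716 genes and of all 9 members. Of these 14716 genes, 11.4% were at least 1.5-fold lower in H222P and 10.9% at least 1.5-fold higher. The 16 cardiomyocyte markers were all measured in both libraries and summed to 37686 CPM in wild type and 19269 CPM in H222P, with 14 at least 1.5-fold lower and 0 higher, and Myh7 was the most abundant. The H222P library also held far more liver transcripts (10 of 10 markers higher, sums of 31.7 and 5884 CPM) and red cell precursor transcripts (9 of 10 higher, 216 and 1615 CPM). Their most abundant markers in H222P were albumin, Alb, with 81 and 83174 reads, and the red cell anion exchanger Slc4a1 with 1967 and 14375, and in wild type transferrin, Trf, with 695 and 8924 reads, and Alas2 of heme synthesis with 3569 and 4503. The globin sum, led by Hbb-y, was 11769 and 17510 CPM. In whole hearts, fewer cells of a type and less RNA per cell cannot be told apart, and the part of these tissue differences in the values below was not tested. Leaving those lists out before scaling moved the overall median log2 ratio by 0.00035, so it is no measure of their part.

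**Figure D1:**
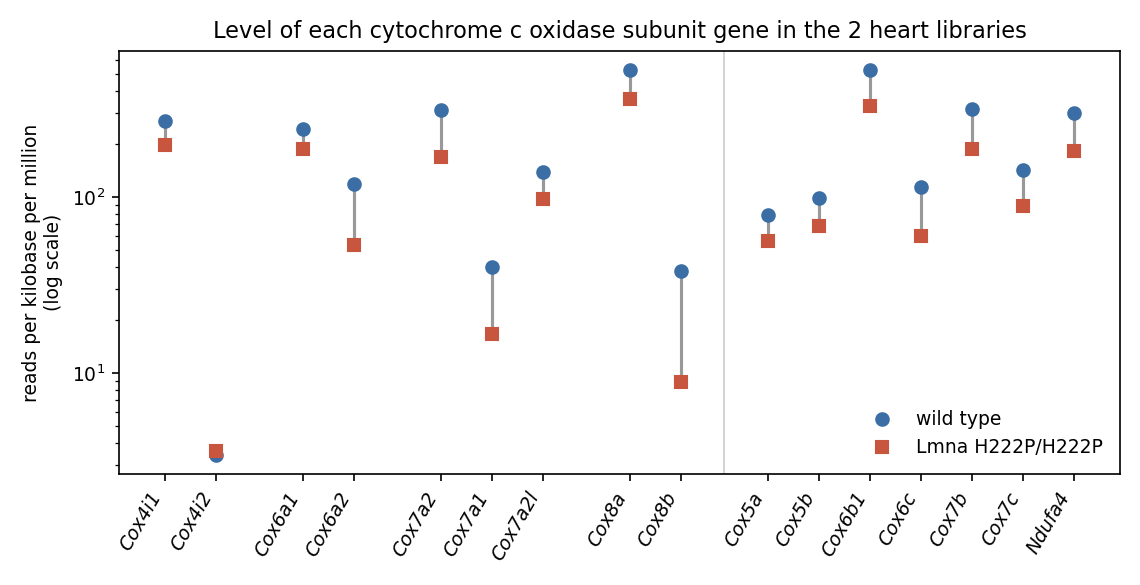
Level of each gene as CPM per kilobase of exon, on a log scale, in the wild-type library (circles) and the H222P library (squares), members on the left and the 7 subunits without a muscle partner on the right. Cox8a stands highest in both libraries and Cox4i2 lowest, and the gaps are widest for Cox8b, Cox7a1 and Cox6a2.

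Levels of different genes were compared as CPM per kilobase of annotated exon. The ubiquitous forms carried most of the message of each family in both libraries. Cox8a stood highest of the 9, at 529 in wild type and 363 in H222P. Cox7a2 stood at 314 and 168, Cox4i1 at 273 and 199 and Cox6a1 at 243 and 187. Cox7a2l stood at 139 and 97.6. Of the muscle forms Cox6a2 was the most abundant, at 119 and 53.3, ahead of Cox7a1 at 40.1 and 16.7 and Cox8b at 38.1 and 8.81. Cox4i2 was lowest, at 3.40 and 3.59. Cox7a1 and Cox8b had nearly the same level in wild type, while in H222P Cox8b was below Cox7a1. The order of the ubiquitous forms depends on the length used: by longest transcript in place of all exons Cox4i1 stood at 553 and 403 and Cox8a at 596 and 408.

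The muscle forms are described first. Cox8b (chromosome 7, 140898945 to 140900446, mm10) encodes the muscle and brown fat form of the small subunit 8, which humans have lost. It had 425 reads in wild type and 84 in H222P, or 13.7 and 3.17 CPM. The log2 ratio was −2.11 (−2.47 to −1.77). Only 0.70% of measured genes had a lower ratio.

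Cox7a1 (chromosome 7, 30184144 to 30186078), the muscle form of subunit 7A, had 664 and 236 reads, or 21.4 and 8.91 CPM, giving a log2 ratio of −1.26 (−1.49 to −1.05). Of measured genes, 2.50% had a lower ratio. Cox6a2 (chromosome 7, 128205435 to 128206387), the heart and skeletal muscle form of subunit 6A, had 2500 and 960 reads, or 80.7 and 36.2 CPM, a log2 ratio of −1.15 (−1.26 to −1.05), with 3.06% of genes lower. All 3 lie on chromosome 7, many megabases apart. The counting intervals of Cox7a1 and Cox6a2 overlap, and that of Cox8b lies below both.

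Cox4i2 (chromosome 2, 152754173 to 152765037) had 83 reads in wild type and 75 in H222P, or 2.68 and 2.83 CPM. At this depth no difference was detectable, and the interval runs from 1.31-fold lower to 1.46-fold higher. Of smooth muscle and pericyte markers, 3 of 10 measured were at least 1.5-fold lower and 2 at least 1.5-fold higher. By sign, 7 of the 10 were below 0 (sums of 1628 and 1239 CPM, Acta2 the most abundant). In the lung bud list 4 of 6 were at least 1.5-fold lower and 1 higher, with 4 below 0 by sign (66.2 and 88.0 CPM). Of all measured genes, 11.4% were lower and 10.9% higher by that size. Foxf1, the most abundant lung bud marker, had 451 reads in wild type and 1543 in H222P, and Sftpc had 211 and 1. No marker of either list was at 0 reads in both libraries, and Higd1b had 2 reads in wild type and 0 in H222P.

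Among the ubiquitous forms, Cox7a2 (chromosome 9, 79755361 to 79759878) had 9189 and 4213 reads, or 297 and 159 CPM, a log2 ratio of −0.90 (−0.95 to −0.85). Its interval lies below those of the other ubiquitous forms. Cox8a (chromosome 19, 7215153 to 7217616) had 10149 and 5945 reads, or 328 and 224 CPM, a log2 ratio of −0.55 (−0.59 to −0.50). Cox4i1 (chromosome 8, 120668222 to 120674207) had 13108 and 8171 reads, or 423 and 308 CPM. Cox6a1 (chromosome 5, 115345642 to 115348981) had 5280 and 3473 reads, or 170 and 131 CPM, a log2 ratio of −0.38 (−0.44 to −0.32), the smallest of these differences.

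By size, 4 of 9 members lay at or beyond 1.5-fold lower and 0 at or beyond 1.5-fold higher, against 11.4% and 10.9% of all measured genes. The 4 were Cox8b, Cox7a1, Cox6a2 and Cox7a2. Cox8a at 1.46-fold and Cox7a2l at 1.43-fold lower came just short of that size. The Cox7a2l value is uncertain, as described below with Gm6969. At the stricter size of 2-fold, the 3 muscle forms qualified, against 4.35% of all genes. The median log2 ratio of the members was −0.55, beside −0.01 over all measured genes. Scaling by total counts moved that overall median by 0.15 and left the same 4 genes past 1.5-fold.

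**Figure D2:**
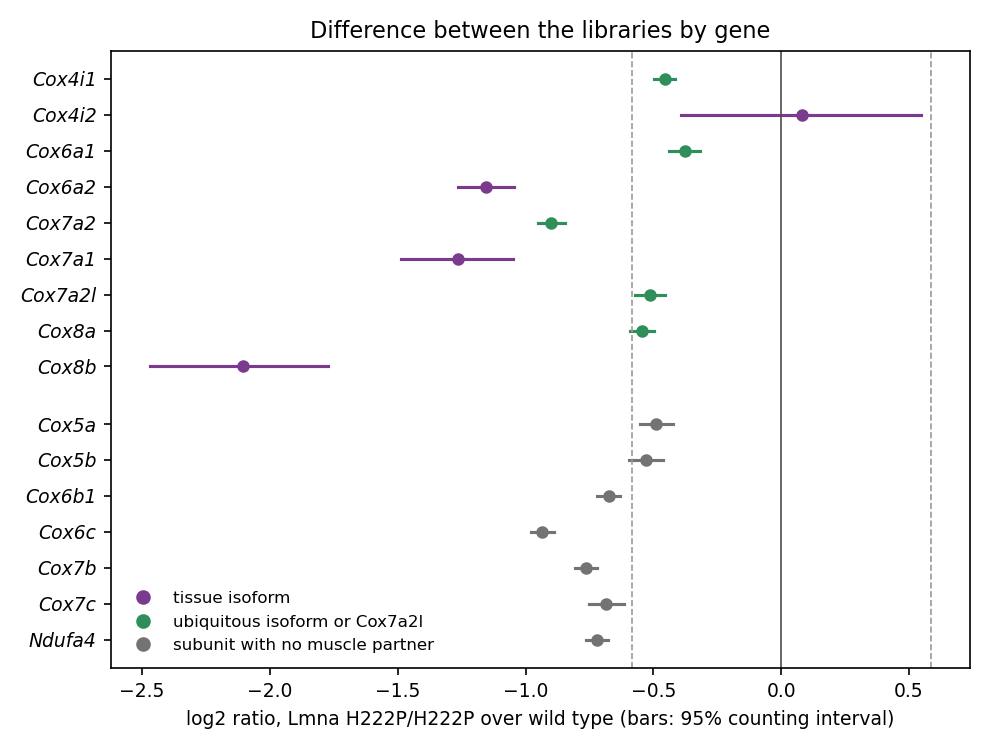
Log2 ratio of H222P over wild type for each gene with its 95% counting interval, with dashed lines at 1.5-fold in either direction. Cox8b, Cox7a1 and Cox6a2 lie farthest to the left, Cox7a2 and 5 of 7 subunits with no muscle partner lie past the dashed line, and Cox4i2 lies at 0.08.

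The comparison within pairs asks whether the mix of isoforms differed, and library scaling and gene length cancel in it. The mix of cells and tissues in each library does not cancel, and its part in these ratios was not tested. The tissue-to-ubiquitous read ratio was lower in H222P for the 3 muscle pairs, and by unequal amounts. For Cox8b to Cox8a it was 2.95-fold lower (2.33 to 3.80), a log2 difference of −1.56 (−1.93 to −1.22). For Cox6a2 to Cox6a1 it was 1.71-fold lower (1.57 to 1.87), a log2 difference of −0.78 (−0.90 to −0.65). For Cox7a1 to Cox7a2 it was 1.29-fold lower (1.11 to 1.51), a log2 difference of −0.37 (−0.59 to −0.14). These 3 intervals do not overlap one another. In the COX7A pair the ubiquitous form was itself lower than in the others: the log2 difference of the Cox7a2 to Cox8a read ratio was −0.35 (−0.42 to −0.28). For Cox4i2 to Cox4i1 the ratio was 1.45-fold higher (1.05 to 2.01).

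As shares of the pair per kilobase, Cox6a2 made up 32.8% of COX6A message in wild type (31.8 to 33.9) and 22.2% in H222P (21.0 to 23.5). Cox7a1 made up 11.3% (10.5 to 12.1) and 9.0% (7.95 to 10.1) of its pair with Cox7a2. Cox8b made up 6.72% (6.12 to 7.35) and 2.37% (1.90 to 2.92) of COX8 message. Cox4i2 made up 1.23% (0.98 to 1.52) and 1.77% (1.40 to 2.22) of COX4 message, or 0.66% and 0.95% by longest transcript. In both libraries the muscle form was the minority of its pair, with the largest share for COX6A, and in H222P its share was smaller in all 3 pairs.

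The summed message of each family, per kilobase, was lower in H222P in all 4 families. It went from 276 to 203 for COX4, from 361 to 240 for COX6A, from 354 to 185 for the Cox7a1 and Cox7a2 pair and from 567 to 371 for COX8. The corresponding log2 ratios were −0.45, −0.59, −0.94 and −0.61.

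**Figure D3:**
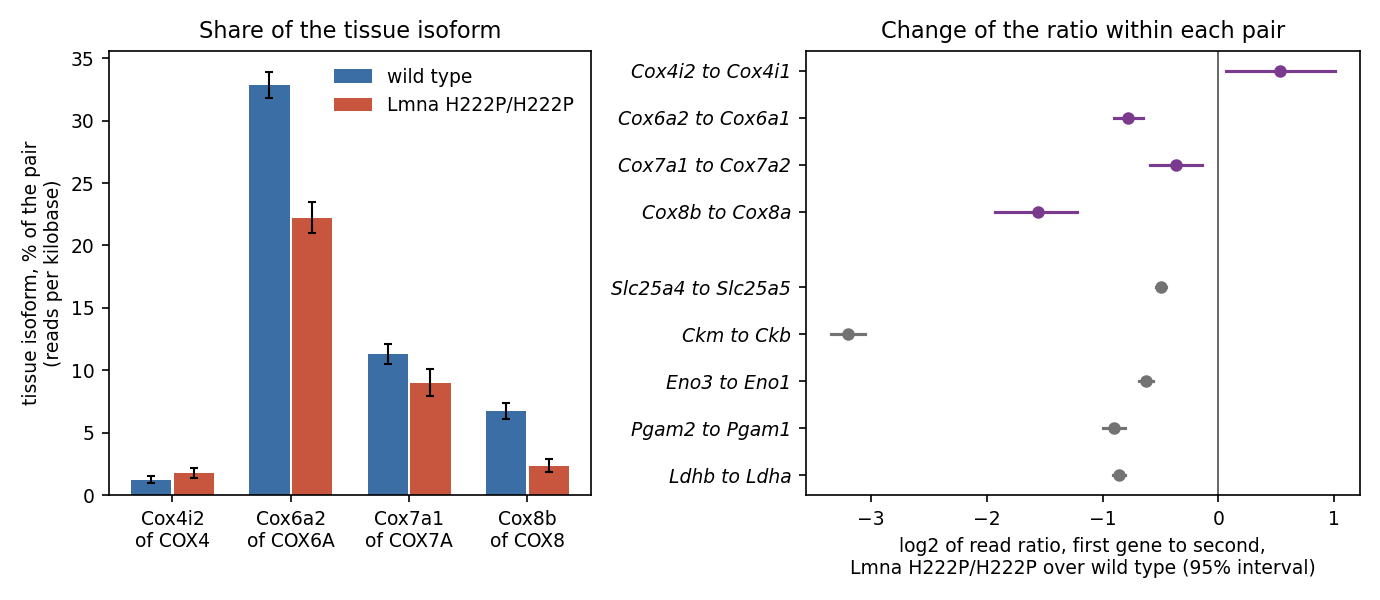
Left, share of the tissue isoform in its pair per kilobase, in percent, for the wild-type and H222P libraries with 95% counting intervals. Right, log2 difference of the tissue-to-ubiquitous read ratio for the 4 COX pairs and of the first gene to the second in 5 other pairs of energy metabolism: all but Cox4i2 to Cox4i1 lie left of 0, from −0.37 for Cox7a1 to −3.20 for Ckm.

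Pairs of other energy metabolism genes were set beside these, 4 with a form enriched in striated muscle and a broader form, and the lactate dehydrogenase pair, with the heart-type subunit Ldhb and the subunit Ldha that prevails in skeletal muscle. In all 5 the muscle or heart form was lower relative to its partner in H222P. For the mitochondrial ADP/ATP carriers Slc25a4 and Slc25a5 the log2 difference was −0.49 (−0.54 to −0.45), and for the enolases Eno3 and Eno1 it was −0.62 (−0.69 to −0.56). For Ldhb and Ldha it was −0.86 (−0.91 to −0.81), and for the phosphoglycerate mutases Pgam2 and Pgam1 it was −0.90 (−1.0 to −0.80). The creatine kinases Ckm and Ckb differed most, by −3.20 (−3.35 to −3.05). The COX6A shift lay within the range of these pairs, the COX7A shift had the smallest value but an interval overlapping those of the ADP/ATP carriers and enolases, and the COX8 shift was exceeded by the creatine kinase pair alone.

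Cox7a2l (chromosome 17, 83501918 to 83517330) had 6385 and 3822 reads, or 206 and 144 CPM, a log2 ratio of −0.51 (−0.57 to −0.46). Relative to Cox7a2 it was higher in H222P by 0.38 on the log2 scale (0.31 to 0.46), and its share of COX7A message per kilobase was 28.2% in wild type and 34.5% in H222P. A processed pseudogene, Gm6969 (chromosome 12, 24638669 to 24639010), aligned over its whole 342 bases to the Cox7a2l transcript at 98.0% identity. The alignment had a gap of 6 bases, as placed by blastn, that are present in Gm6969 and absent from Cox7a2l of the mm10 reference. The stretch around it is shown because reads of these 2 genes differ little elsewhere. Both come from GENCODE M21 transcripts (GRCm38, minus strand), with the 6 bases in capitals.
Gm6969: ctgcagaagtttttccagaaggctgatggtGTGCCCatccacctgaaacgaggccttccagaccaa
Cox7a2l: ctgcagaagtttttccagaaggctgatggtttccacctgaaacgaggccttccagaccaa
As background, the reference strain C57BL/6J carries a shortened Cox7a2l, and other strains, 129 among them, carry a longer form. Gm6969 had 1493 reads in wild type and 1622 in H222P, and its log2 ratio was 0.35 (0.24 to 0.45). It held 19.0% of the reads of both genes together in wild type (exact binomial interval 18.1 to 19.8) and 29.8% in H222P (28.6 to 31.0). With both entries summed the Cox7a2l log2 ratio moved to −0.31 (−0.36 to −0.26), so its value is uncertain. Both libraries are labelled 129sv. Whether they carry the same form of Cox7a2l, and how many of the Gm6969 reads came from Cox7a2l, was not tested. No other member had a near-identical entry in the count tables with more than 1 read in either library.

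Subunits of the enzyme with no muscle partner give the background within the complex. All 7 (Cox5a, Cox5b, Cox6b1, Cox6c, Cox7b, Cox7c and Ndufa4) had log2 ratios below 0, from −0.93 to −0.49 with a median of −0.68. Of them, 5 were at least 1.5-fold lower, against 11.4% of all measured genes. With scaling by total counts 2 were. Ndufa4, the most abundant by reads, had 12831 and 6662 reads and a log2 ratio of −0.72 (−0.76 to −0.68). Cox6c, a small transmembrane subunit, was lowest at −0.93 (−0.98 to −0.89), and Cox6b1, on the intermembrane side, stood at −0.67, Cox7b at −0.76 and Cox7c at −0.68. Cox5a was nearest to 0, at −0.49 (−0.55 to −0.42). Of the members, Cox7a2, Cox8a and Cox7a2l fell inside this range, the 3 muscle forms below it and Cox4i1, Cox6a1 and Cox4i2 above it. With Gm6969 reads added, Cox7a2l at −0.31 lay above it too.

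The summed reads of these 7 subunits had a log2 ratio of −0.72, inside their own range. The subunits themselves thus lie on both sides of it. Set against this sum, members also lay on both sides. For Cox7a2, Cox8a and Cox7a2l, which fell inside that range by their own counts, the difference is no larger than the spread among the subunits. The muscle forms stayed lower in H222P: Cox8b by −1.39 on the log2 scale (−1.75 to −1.05), Cox7a1 by −0.54 (−0.77 to −0.33) and Cox6a2 by −0.43 (−0.54 to −0.32). Cox7a2 was also lower, by −0.18 (−0.23 to −0.12). Cox6a1, Cox4i1, Cox7a2l and Cox8a were higher, by 0.34, 0.26, 0.21 and 0.17. Cox4i2 was higher by 0.80 (0.33 to 1.27). Per 100 reads of the 7 subunits there were 3.91 reads of Cox6a2 in wild type and 2.89 in H222P, and 0.66 and 0.25 reads of Cox8b.

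The forms restricted to testis or induced by low oxygen were scarce. Cox8c, a testis form, had 0 reads in both libraries, which allows up to 0.097 CPM in wild type and 0.11 CPM in H222P for counting error only, and Cox7b2, another testis form, had 4 reads in each. Cox6b2, the testis form of subunit 6B, had 156 and 175 reads (log2 ratio 0.39, 0.07 to 0.71). Ndufa4l2, a hypoxia-induced relative of Ndufa4, had 124 and 83 reads (−0.35, −0.77 to 0.06).

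Of 24 measured factors that build the enzyme or act beside it, 2 lay beyond 1.5-fold lower and 0 beyond 1.5-fold higher, beside 11.4% and 10.9% of all measured genes, with a median of −0.20 beside −0.01. The 2 were Cox20, which helps the maturation of subunit 2 (1284 and 593 reads, −0.89, −1.03 to −0.75), and Cox14, which acts on subunit 1 (1519 and 853 reads, −0.61, −0.73 to −0.48). Lrpprc, which stabilises mitochondrial messages and was the most abundant of them, stood at −0.15 (−0.21 to −0.09), and the highest with at least 5 CPM was Coa4, at 0.27.

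Of 18 regulators of mitochondrial and muscle genes, 5 lay beyond 1.5-fold lower and 0 beyond 1.5-fold higher, beside 11.4% and 10.9% of all measured genes. Their median was −0.25, beside −0.01. Ppargc1a, the coactivator PGC-1α, had 3250 and 1313 reads and stood at −1.08 (−1.17 to −0.99). The estrogen-related receptors Esrra and Esrrg, its partners, stood at −0.67 (−0.78 to −0.55) and −0.71 (−0.82 to −0.60), and the muscle factor Mef2a at −0.85 (−0.90 to −0.79). Perm1, a muscle regulator induced by PGC-1 and these receptors, had 147 and 30 reads and stood at −2.05 (−2.68 to −1.49). The highest was Nrf1, the respiratory gene factor, at 0.46 (0.34 to 0.58), and the most abundant was the hypoxia factor gene Hif1a, at −0.57 (−0.61 to −0.53). Rbpj and Chchd2, reported to act at the human COX4I2 promoter, stood at 0.41 and −0.30. Cxxc5, of the same list, stood at −0.09 (−0.20 to 0.02).

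**Figure D4:**
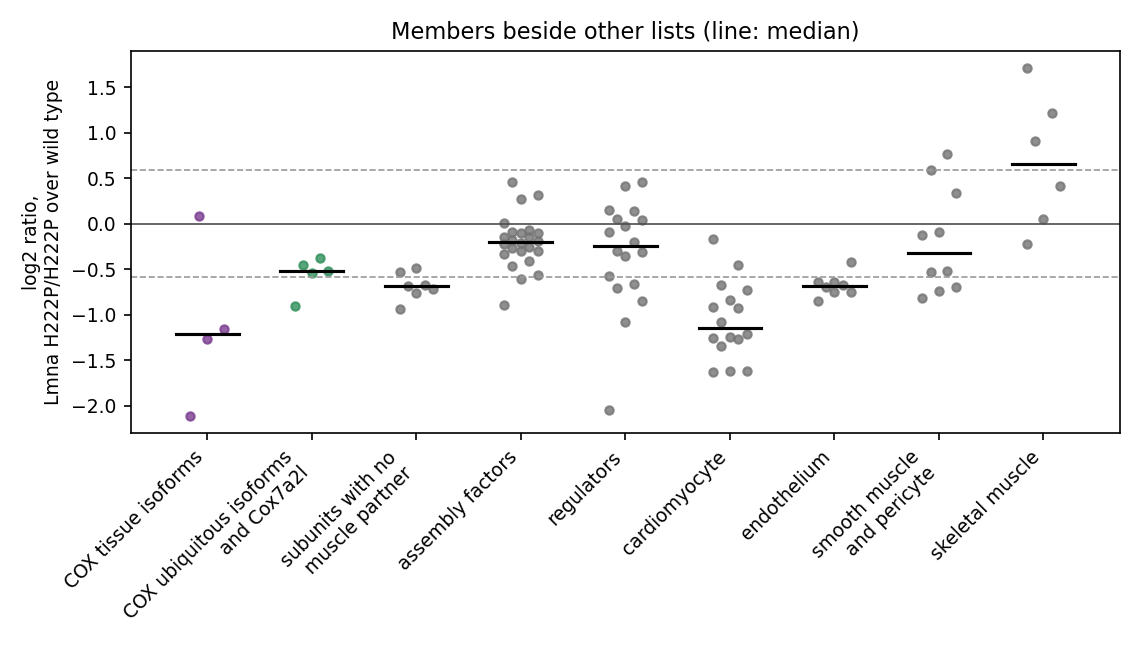
Log2 ratios of the measured genes of each list, with the median as a line and dashed lines at 1.5-fold. The cardiomyocyte genes range from −1.63 to −0.17, which takes in Cox6a2 and Cox7a1 but not Cox8b at −2.11.

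Cardiomyocyte genes were lower beside the muscle forms. The 16 markers ranged from −1.63 to −0.17 with a median of −1.14, and their summed reads had a log2 ratio of −0.97. Cox6a2 and Cox7a1 lay within that range and Cox8b below all 16. Against the summed cardiomyocyte reads Cox6a2 was lower by −0.19 (−0.30 to −0.08) and Cox7a1 by −0.30 (−0.52 to −0.08). Cox8b was lower by −1.14 (−1.5 to −0.80). The sum is weighted to the most abundant markers, and these intervals leave out the spread among the 16. The marker median, −1.14, was close to Cox6a2 at −1.15 and above Cox7a1 at −1.26. Relative to the same sum Cox7a2 stood at 0.069, Cox8a at 0.42, Cox7a2l at 0.45, Cox4i1 at 0.51, Cox6a1 at 0.59 and Cox4i2 at 1.05. The part of cardiomyocyte RNA in each library was not tested further. Skeletal muscle markers were mostly higher, with a median log2 ratio of 0.66. Of 6 measured, 1 had a ratio below 0, while 0 lay beyond 1.5-fold lower and 3 beyond 1.5-fold higher. Their sums of 226 and 243 CPM were mostly Acta1, with 5483 and 4839 reads. Below 1 CPM, Myod1 had 6 and 24 reads, and Pax7 and Myf5 had 0 in wild type and 8 each in H222P. Of endothelial markers 7 of 8 were at least 1.5-fold lower, with sums of 1094 and 691 CPM, the most abundant being Npr3. Of neural markers 5 of 6 were at least 1.5-fold higher (13.9 and 46.8 CPM), with Tubb3 the most abundant in H222P. Beside these counts, 11.4% of all measured genes were at least 1.5-fold lower and 10.9% at least 1.5-fold higher.

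The genes of these lists nearest to each tissue form in ratio were sought among 119 with a mean of at least 5 CPM. With 2 libraries such likeness is a single ratio. Nearest to Cox7a1 were the troponin and myosin genes Tnnt2, Myl3 and Tnni1 (−1.27, −1.26 and −1.24), and nearest to Cox6a2 were Nppa, Ppargc1a and Myh7 (−1.21, −1.08 and −1.07). Nearest to Cox8b were Pln, Tnni3 and Myl2 (−1.63, −1.62 and −1.62), and Perm1, under 5 CPM and so outside this search, was closer, at −2.05. Nearest to Cox4i2 were Yy1, Acta1 and Lonp1 (0.05, 0.05 and 0.04).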

How the data were processed

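RNA was measured in 2 libraries of E13.5 hearts, with groups from the labelled genotype. The authors deposited unnormalized counts, whole reads for each gene and strand, in the layout STAR writes. The submitters' processing notes name STAR, HTSeq, DESeq and mm10 and give no versions. The deposited counts are named as GENCODE counts, and which release was counted is not given in the sources used. Reads mapped to several places (5.37% in wild type, 6.09% in H222P) are not in the gene counts. The reverse-strand column was used, which held 19.3 and 20.5 times the reads of the other strand; summary entries were left out.

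Scaling used TMM factors (edgeR 4.0.16, R 4.3.3; 0.95 and 1.05). Log2 ratios used a prior count of 0.5. Intervals (Python 3.11.15, scipy 1.17.1) are exact Clopper-Pearson for genes and shares, and exact conditional odds ratio intervals for pairs; they cover counting error only, since PCR copies of a molecule cannot be recognised. With 1 library per genotype no test could be run, so genes are described by size (1.5-fold) at a mean of at least 1 CPM. Lengths and coordinates are from GENCODE M21 (GRCm38, the assembly of mm10), and near-identical transcripts (at least 90% identity over 100 bases) from blastn 2.17.0. Named were all members, all pairs, the other tissue forms, the 3 nearest genes of each tissue form, in the subunit, assembly factor and regulator lists the genes at 5 CPM or more past 1.5-fold, highest or lowest and the most abundant, and in marker lists the most abundant in each library, of which a gene is not reported here; Perm1, Rbpj, Chchd2 and the marker genes Pax7, Myf5 and Higd1b were named after their values were seen. So were Sftpc and Cxxc5. Members and lists were chosen with earlier results of these data known. Steps were tested on simulated data. Alternatives tried were size factors of DESeq2 1.42.0, scaling by total counts, other filters, a prior count of 5, both strands, thinning, other-tissue lists left out, copies added, transcript length and 2 references within the library.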

Additional observations from a re-analysis of the deposited data

How the results depend on the processing

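The tissue-to-ubiquitous differences of all 4 pairs kept their direction and stayed within their counting intervals with both strands counted, the deeper library thinned, a prior count of 5 or near-identical copies added. Adding copies changed the COX7A pair alone, by 1 read in each library, so it is no check of the other pairs. None of these alternatives covers variation between hearts. In the 7 alternatives other than scaling to a reference within the library, 8 members had log2 ratios below 0, and Cox4i2 ranged from 0.05 to 0.23. Of 81 member ratios recomputed, 56 stayed within their interval and 9 changed sign, all 9 under the 2 references within the library. Scaled to the subunits with no muscle partner, whose sum is itself lower in H222P, members at least 1.5-fold lower went from 4 to 1 (Cox8b) and those higher from 0 to 1 (Cox4i2), and Cox4i1, Cox6a1, Cox7a2l and Cox8a changed sign, to between 0.17 and 0.34. Scaled to the cardiomyocyte list, an alternative chosen after seeing the data, they were 1 and 2, the same 4 ubiquitous or related genes changed sign, to between 0.42 and 0.59, and Cox7a2 went from −0.90 to 0.069; both references move the overall median, by 0.72 and 0.97. Under total counts, subunits with no muscle partner at least 1.5-fold lower went from 5 to 2 and assembly factors from 2 to 1; assembly factors were also 1 with both strands counted and 3 under DESeq2 size factors. No paired analysis was possible because each genotype has 1 library, and no library could be left out for the same reason. Depth limits Cox4i2 (83 and 75 reads) and Cox8b in H222P (84 reads) most.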

Other observations

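Counting both strands together lowered the Cox4i1 reads from 13108 to 9071 in wild type and from 8171 to 5677 in H222P. Its annotated gene overlaps Emc8 on the opposite strand by 352 bases, and Emc8 had 1118 and 954 reads. On the same strand, Gm20388 overlaps Cox4i1 over 5986 bases, with 0 reads counted for it in both libraries. Any effect of that overlap on the Cox4i1 counts was not tested. Cox6a2 lies within Itgad, which runs on the opposite strand and had 0 reads in both libraries. Reads on the strand opposite to the members numbered between 0 and 23 in each library.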
